A study of Homo sapiens with 16 samples.

Results

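The sites described here are stretches of the human genome that carried a peak of RNA polymerase II (Pol II) after 30 min and after 1 h of merbarone and none without the drug. They were mapped by ChIP-seq, in which DNA bound by a protein is pulled down with an antibody and sequenced. The cells were hTERT RPE-1, a line from human retinal pigment epithelium that telomerase keeps in division. Peaks of the 3 Pol II lists that overlapped by at least 1 bp were merged into 104562 regions. Of these, 9198 regions (8.80%) had a peak in both merbarone lists and none in the control list, and they are called gained sites below. They were chosen from the peak lists themselves, so their presence at both times and their absence from control are given as a description with no test.

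Pol II transcribes protein-coding genes and many non-coding ones, and a peak marks a stretch where its largest subunit RPB1 was enriched. At many genes Pol II halts shortly after the start site and is then released into the gene body, so it can be found both at narrow points and along extended stretches. Transcription overwinds DNA ahead of Pol II and underwinds it behind. DNA topoisomerase II alpha (TOP2A) relaxes such supercoils by passing one duplex through a transient break in another, and merbarone blocks the enzyme before it cuts. The study asked how supercoiling bears on the pausing of Pol II near promoters.

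All cells were wild type and were held in 0.1% serum for 48 h before treatment. The control list stands for 3 libraries of cells given vehicle (DMSO) for 30 min and 3 libraries of untreated cells. The other Pol II lists stand for 3 libraries after 30 min of merbarone at 200 uM and 2 libraries after 1 h at the same dose. A list of TOP2A peaks stands for 2 libraries of untreated cells. The Pol II antibody binds the N-terminal domain of RPB1. Vehicle lasted 30 min, so no vehicle matches the 1 h time.

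Each list pools all libraries of its condition, and how the authors combined them is not given in the sources at hand. No value below therefore has a spread between libraries, and no p-value is given. The lists held 87911 control peaks, 85990 peaks at 30 min, 81816 peaks at 1 h and 1840 TOP2A peaks, as positions on hg19 with no height or score. Read depth was unknown. A site missing from the control list may thus be a site with less Pol II than the authors' threshold asked for. Brackets after a share give its 95% Wilson interval, which covers counting error only (neighbouring sites are not independent). No annotation of hg19 was used, so sites are given by position and no gene is assigned to them.

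The gained sites held 9576 of the 81816 peaks at 1 h (11.7%) and 10313 of the 85990 peaks at 30 min (12.0%). They took up a smaller share of the peaks that had no control partner at 1 h (26.5% of 36092) than at 30 min (35.1% of 29364). Most of the remainder stood alone at 1 time. These were 24925 regions with a peak at 1 h only and 13576 with a peak at 30 min only. A further 5475 peaks at 30 min, and 1591 at 1 h, met no control peak themselves but overlapped a peak of the other time, or a chain of peaks, that did. They are not counted as gained sites.

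Regions that 2 of the 3 lists shared were most numerous for the 2 merbarone times. Against the 9198 gained sites stood 4781 regions (4.57% of all) in control and at 30 min but not at 1 h, and 5182 regions (4.96%) in control and at 1 h but not at 30 min. The control list held 12856 regions (12.3%) found at neither time. The lists differ in the smallest peak they hold, which spanned 136 bp in control, 150 bp for 30 min and 159 bp for 1 h. Peaks up to 37 bp apart were therefore joined in every Pol II list and those under 159 bp left out, here called like limits. Gained sites then numbered 9774 of 92077 merged regions (10.6%), against 2657 in control and at 30 min and 3906 in control and at 1 h. The gained sites were the most numerous of the 3 kinds under each choice in the plot of regions shared by 2 lists. Like limits left 60318 of 87911 control peaks, 68011 peaks at 30 min and all 81816 at 1 h. Leaving out short control peaks turns regions that hold them into gained sites, which favours this order. The part of that was not tested. With only peaks of at least 300 bp kept in every Pol II list, 5145 regions were sorted as gained, of a total not given. Regions whose control peaks are all shorter then pass as gained. Only 1868 of the 9198 gained sites (20.3%) had at least 300 bp at both times, so the 5145 are partly other regions.

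**Figure D1:**
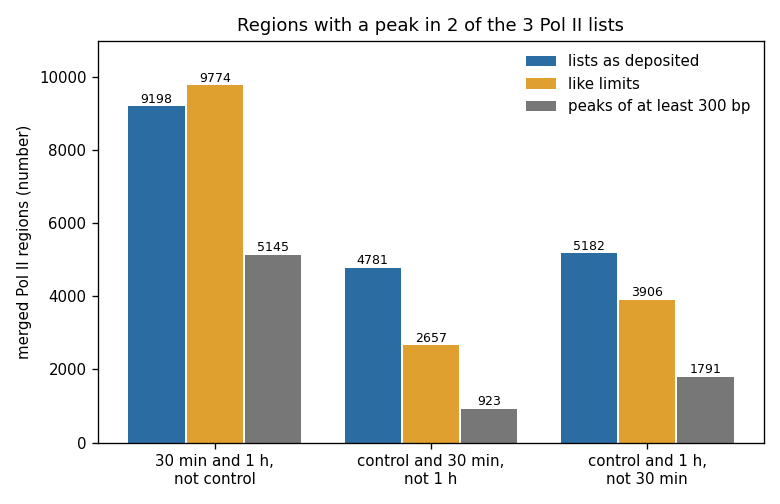
Number of merged Pol II regions (vertical axis) with a peak in exactly 2 of the 3 Pol II lists, for lists as deposited, for like limits and for peaks of at least 300 bp. Gained sites, at the left, numbered 9198, 9774 and 5145, above both other kinds under each choice. Regions were sorted anew under each choice, so these are only partly the same sites. The total of merged regions differs between choices, at 104562 as deposited and 92077 with like limits.

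Gained sites were narrow at both times. Their bases under peaks had a median of 299 bp at 1 h, with quartiles of 208 and 446 bp, and of 219 bp at 30 min, with quartiles of 170 and 321 bp. They were wider than the regions seen at 1 time alone, which had medians of 218 bp for 1 h only and 176 bp for 30 min only. They were much narrower than the 34044 regions shared by all 3 lists (32.6% of all), with medians of 887 bp at 1 h and 759 bp at 30 min. A few sites stood at the lower limit of a list, 407 (4.42%) at 1 h and 536 (5.83%) at 30 min. No width under those limits could be seen.

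Most gained sites were wider at 1 h than at 30 min. Peaks of the whole 1 h list were also wider, with a median of 347 bp against 277 bp for the 30 min list. The part of limits that differ between the lists was not tested, and with like limits 64.1% (63.1 to 65.0) of gained sites were wider at 1 h. A site was wider at 1 h in 6356 cases (69.1%, 68.1 to 70.0) and wider at 30 min in 2802 cases (30.5%, 29.5 to 31.4). At least 2 times as many bases were covered at 1 h in 1859 sites (20.2%), and at most 50% as many in 270 sites (2.94%). Added up, the sites covered 3.41 Mb at 1 h and 2.52 Mb at 30 min, a ratio of 1.35. In the regions shared by all 3 lists the sum was 46.5 Mb at 1 h and 41.2 Mb at 30 min, a ratio of 1.13, and the share wider at 1 h was 68.2% (67.7 to 68.7). Gained sites were thus close to those regions in how many widened, while the total grew by a larger factor. This set of sites and those regions were defined from the same lists, so the difference was not tested.

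**Figure D2:**
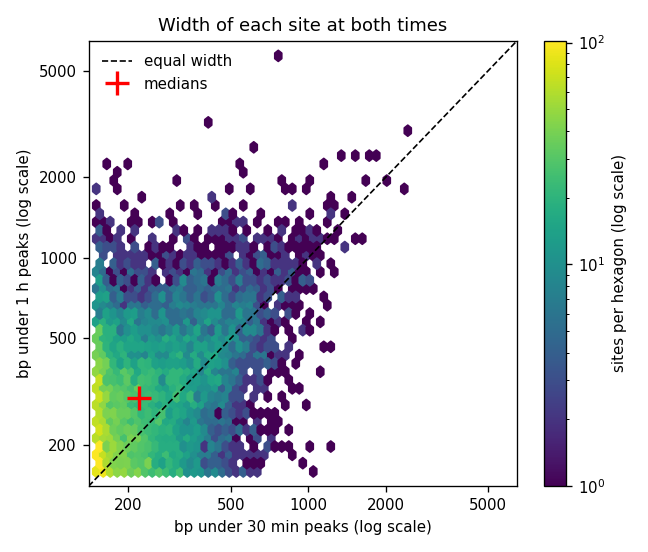
Bases under peaks at 1 h (vertical, log scale) against bases under peaks at 30 min (horizontal, log scale) for the 9198 gained sites, coloured by the number of sites in each hexagon. The dashed line marks equal width and the cross the medians of 299 bp at 1 h and 219 bp at 30 min, which lies above the line.

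By the way sites were chosen, peaks of the 2 times overlap by at least 1 bp in each of them, and peaks that missed each other are counted as seen at 1 time only. The extent of overlap is given as a description under that condition. In 8201 sites (89.2%, 88.5 to 89.8) a peak at 1 h and a peak at 30 min overlapped by at least 50% of the narrower one. The bases in common made up 55.9% of those covered at 1 h and 75.7% of those covered at 30 min. In 2864 sites (31.1%) the span at 1 h enclosed the span at 30 min, in 1232 (13.4%) the reverse held, and in 5102 (55.5%) each time reached past the other on one side. Width at 1 h followed width at 30 min only loosely, with a Spearman correlation of 0.294 across the 9198 sites, which share their libraries. A single peak stood at each time in 7981 sites (86.8%). In 849 sites (9.23%) 1 peak at 1 h matched 2 or more peaks at 30 min, and in 244 sites (2.65%) the reverse was seen.

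The widening was close to even on both sides. Sites reached farther at 1 h toward the nearest control peak more than away from it in 49.0% of cases (47.97 to 50.01), and the other way in 50.7%. The median shift of the edge was 19 bp on the near side and 25 bp on the far side. A site that reached a control peak would not be counted, and the part of this in the near side was not tested. Among the 5586 sites up to 1 kb from control the share was 48.8% (47.49 to 50.11), with median shifts of 13 bp on the near side and 20.5 bp on the far side. For the 1147 sites over 5 kb from control it was 49.0% (46.11 to 51.89), with median shifts of 28 bp on the near side and 35 bp on the far side.

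The 10 gained sites with the most bases at whichever time had fewer spanned 1707 to 3112 bp. Sites that were wide at 1 time only are not among them. The first lay on chromosome 7 from 157182181 to 157185292, with 2954 bp covered at 1 h and 2519 bp at 30 min, and the nearest control peak 3652 bp away. It was made of 2 peaks at 1 h and 6 at 30 min. The next, on chromosome 11 from 46416500 to 46419056, held 2012 bp at 1 h and 2015 bp at 30 min, so its cover was nearly the same at both times. It lay only 267 bp from control. Of these 10 sites, 9 were made of 2 to 7 peaks at 30 min, and the other was 1 unbroken peak.

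That unbroken peak lay on chromosome 19 from 45976914 to 45979238, where 1783 bp in 2 pieces were covered at 1 h, against 2325 bp at 30 min. It was the one site among these 10 that lost more than 3 bp between the times. Chromosome 16 from 3703840 to 3706340 showed the opposite course, with 2451 bp in 2 peaks at 1 h and 1806 bp in 7 peaks at 30 min. On chromosome 20 from 60779474 to 60781872, 1 peak of 2390 bp at 1 h stood where 6 peaks at 30 min covered 1388 bp in all. On chromosome 18 from 47368818 to 47371231, 1 peak of 2414 bp at 1 h stood where 4 peaks at 30 min covered 1751 bp. That site lay 27.9 kb from any control peak, while the other 9 lay within 3.65 kb of one.

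Some sites changed far more between the times, and the following were chosen for that after their values were seen. The largest gain was on chromosome 1 from 9359752 to 9365450, with 5699 bp at 1 h and 764 bp at 30 min. Chromosome 1 from 28607762 to 28611015 held 3254 bp at 1 h and 400 bp at 30 min, and lay 20.3 kb from control. On chromosome 5 from 135393028 to 135395354, 2327 bp were covered at 1 h and 167 bp at 30 min. Losses were smaller. On chromosome 13 from 114780445 to 114781696, 198 bp were covered at 1 h and 1252 bp at 30 min. On chromosome 1 from 158058857 to 158059903 the values were 159 bp at 1 h, the smallest width of that list, and 1047 bp at 30 min.

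Gained sites lay beside Pol II that was present without drug. The gap to the nearest control peak had a median of 656 bp, with quartiles of 242 and 1945 bp. A control peak lay within 1 kb of 5586 sites (60.7%, 59.7 to 61.7) and within 5 kb of 8051 sites (87.5%, 86.8 to 88.2). Sites gained at both times lay nearer to control than those seen once, as the plot of distances shows. The share within 1 kb was 52.1% (51.3 to 52.9) for regions at 30 min only and 41.2% (40.6 to 41.8) for regions at 1 h only, and their median gaps were 910 and 1470 bp. The 3 kinds were measured against the same control list. In the other direction, control regions found at neither merbarone time had a merbarone peak within 1 kb in 70.6% of cases (69.8 to 71.3). With like limits the median gap of gained sites was 895 bp, and with peaks of at least 300 bp it was 1591 bp. Both choices leave fewer control peaks to measure against, which favours longer gaps, and give partly other sites.

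**Figure D3:**
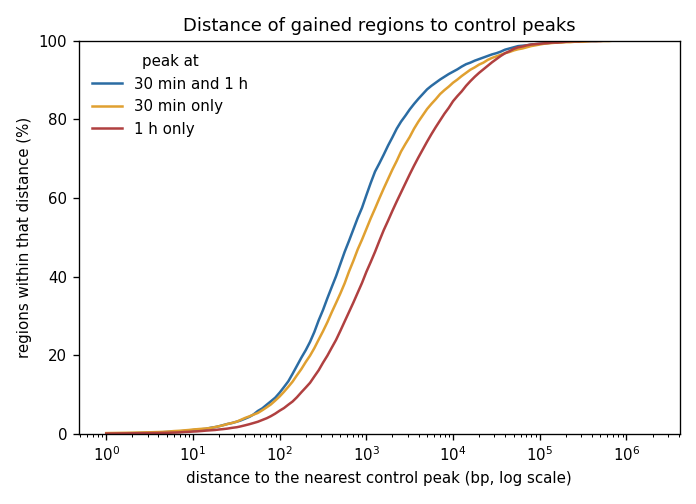
Share of regions (vertical axis, %) whose nearest control peak lies within the distance on the horizontal axis (bp, log scale), for sites gained at both times and for regions seen at 30 min only or at 1 h only. At 1 kb the curves stand at 60.7, 52.1 and 41.2%.

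At the edge of the definition, 89 gained sites stood within 10 bp of a control peak, 1 of them with no base between. That site lay on chromosome 10 from 103545429 to 103545676. On the other side of the limit, 43 regions of all 3 lists had at most 10 bp of control under their merbarone peaks. The median width was 293 bp for the gained sites and 232 bp for the regions outside at 1 h, and 223 and 217 bp at 30 min.

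Median width differed by less than 50 bp between bands of distance up to 50 kb. Sites within 100 bp of control had medians of 285 bp at 1 h and 232 bp at 30 min. Those 10 to 50 kb away had medians of 322 bp at 1 h and 209 bp at 30 min. The share that was wider at 1 h was 65.7% among the 963 nearest sites and 74.7% among the 570 sites at 10 to 50 kb. Among the 156 sites beyond 50 kb it was 62.2%, with medians of 248 bp at 1 h and 217 bp at 30 min.

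Many gained sites lay between control peaks. When control peaks up to 5 kb apart were joined into 20013 domains, 3993 gained sites (43.4%, 42.4 to 44.4) lay inside a domain. A further 4058 (44.1%) lay within 5 kb of an edge and 1147 (12.5%) lay farther out. Regions at 30 min only lay inside in 36.7% of cases (35.9 to 37.5) and those at 1 h only in 27.3% (26.8 to 27.9). The share inside follows the gap allowed within a domain, and was 7.06% with 1 kb and 57.1% with 10 kb. With peaks of at least 300 bp alone it was 20.0% (19.0 to 21.2), for partly other sites and with shorter control peaks left out of the domains.

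The 3993 inner sites lay in 3381 separate gaps between control peaks, with a median length of 1867 bp. They filled a small part of each, with a median of 20.5% at 1 h and 16.1% at 30 min. At least 50% of the gap was filled by gained sites in 261 gaps at 1 h and in 147 at 30 min. The sites were found in 2055 of the domains (10.3%), and these were wide, with a median of 12.0 kb against 1.07 kb for domains with none. The part of domain width in this was not tested.

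A single domain on chromosome 10 from 13675269 to 14062544, 387 kb long, held 49 gained sites, the most of any. Pol II lay in it without drug in 519 separate peaks that covered 36.5% of its length. Chromosome 10 as a whole held 438 gained sites to 4817 control peaks. The gained sites added 17623 bp at 1 h and 14555 bp at 30 min. A domain of 242 kb on chromosome 1 from 201521823 to 201764010 held 32 sites among 264 control peaks. One of 90.4 kb on chromosome 17 from 75412189 to 75502581 held 24 among 73. Over the whole of these chromosomes there were 920 sites to 8186 control peaks and 556 to 5259. Domains are ranked here by number of sites, and the part of domain size in that was not tested. On chromosome 2 from 235883140 to 235968987, 19 sites covered 9065 bp at 1 h and 4981 bp at 30 min. In these domains the control signal was already broken into many pieces. Gained sites inside a domain stand between control peaks by the way both were defined.

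The control peak nearest to a gained site was less often one that lasted than control peaks as a whole. It had a partner in both merbarone lists for 5068 sites (55.1%, 54.1 to 56.1), in 1 list for 2384 (25.9%) and in neither for 1746 (19.0%, 18.2 to 19.8). Among all control peaks these shares were 66.2%, 19.2% and 14.6% (14.4 to 14.9). The share with a partner in both lists was 44.6% for neighbours of regions at 30 min only and 50.9% for those at 1 h only. Neighbours of gained sites were narrow, at a median of 191 bp against 242 bp over all control peaks, and narrow peaks had fewer partners. Peaks with no partner had a median of 158 bp and those with 2 a median of 353 bp. Seen from the control side, a gained site lay within 1 kb of 9.99% (9.75 to 10.2) of control peaks with 2 partners, of 13.9% (13.4 to 14.5) of those with 1 and of 10.5% (9.99 to 11.1) of those with none. Without matching for width, gained sites were thus about as frequent beside control peaks that lasted as beside those that were lost. They were somewhat more so beside peaks found at 1 time. The part of width in these shares was not tested.

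Gained sites were often near each other. Joined across gaps of up to 5 kb they formed 6066 groups, of which 4232 were single sites and 1834 were clusters of at least 2. The clusters held 54.0% of all sites (53.0 to 55.0). The share was 62.0% (61.2 to 62.9) for the 13576 regions at 30 min only and 72.5% (72.0 to 73.1) for the 24925 at 1 h only. The 3 kinds differ in number, and the part of that in these shares was not tested. With gaps of up to 1 kb the share of gained sites in clusters was 27.5%.

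There were 699 clusters of 3 sites or more, with a median span of 5481 bp. Control peaks covered a median of 6.21% of the span, 30 min peaks 32.8% and 1 h peaks 45.4%, counting all peaks within it. The spans are set by sites that hold no control peak, which favours a lower control share. A control peak stood between the sites in 509 of these clusters (72.8%, 69.4 to 76.0) and none in 190 (27.2%). The sites covered more bases at 1 h than at 30 min in 552 clusters (79.0%, 75.8 to 81.8) and fewer in 147 (21.0%). Single sites of a cluster often went different ways. Every site was wider at 1 h in 221 clusters (31.6%) and every site was narrower in 24 (3.43%), while 448 (64.1%) held sites of both kinds.

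The 2 clusters with the most sites held 11 each. That on chromosome 7 from 1509859 to 1527268 spans 17.4 kb, of which peaks took up 2.51% in control, 27.5% at 30 min and 63.6% at 1 h. Its sites ranged from 166 to 1764 bp at 1 h and from 150 to 977 bp at 30 min, and 10 of the 11 were wider at 1 h. Control Pol II was limited to 2 peaks of 140 and 297 bp. The other, on chromosome 1 from 39850662 to 39872350, held 17 control peaks, and its cover was 21.3% in control, 38.7% after 30 min and 53.8% after 1 h. The first cluster was thus nearly free of Pol II peaks in control, and the second held many.

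The clusters with the most bases at 30 min went the other way between the times. On chromosome 13 from 114762654 to 114784400, 10 sites covered 2287 bp at 1 h and 3953 bp at 30 min. Of the whole stretch, peaks took up 2.28% in control, 30.3% at 30 min and 14.4% at 1 h. On chromosome 8 from 131067033 to 131076452 the shares were 8.10% in control, 63.5% at 30 min and 41.7% at 1 h. On chromosome 3 from 49426399 to 49443291 they were 6.61%, 44.5% and 23.7%. These 3 clusters were picked for their cover at 30 min, and such a choice favours clusters that were lower at 1 h. Cover at 1 h was above control cover in each, which the choice of sites with a 1 h peak and no control peak favours.

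For 726 gained sites (7.89%) the nearest control peak was more than 10 kb away. Of these, 186 (25.6%) had another gained site within 5 kb, 367 (50.6%) had a region of 1 h only within 5 kb, and 223 (30.7%) had a region of 30 min only. The other 244 (33.6%, 30.3 to 37.1) had no such region within 5 kb and stood alone. Of the 699 clusters of at least 3 sites, 14 (2.00%) lay over 10 kb from control. The following 3 were named after their values were seen.

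The first, on chromosome 1 from 3324812 to 3330890, held 7 sites over 6.08 kb. It had no control peak within 22221 bp, and peaks took up 65.2% of its span at 1 h and 40.3% at 30 min. From left to right its sites covered 702, 390, 796, 310, 159, 540 and 886 bp at 1 h, and 225, 150, 420, 357, 150, 581 and 376 bp at 30 min. Sites at both ends widened most, and 2 inner sites were slightly narrower at 1 h. The second, on chromosome 10 from 129211096 to 129217259, also held 7 sites and lay 37245 bp from control, with cover of 49.7% at 1 h and 32.1% at 30 min. The third, on chromosome 4 from 1371147 to 1374828, lay 15305 bp from control and was covered over 48.6% at 1 h and 52.3% at 30 min. That these stretches held no control peak and carried Pol II peaks at both times follows from how sites and clusters were chosen.

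**Figure D4:**
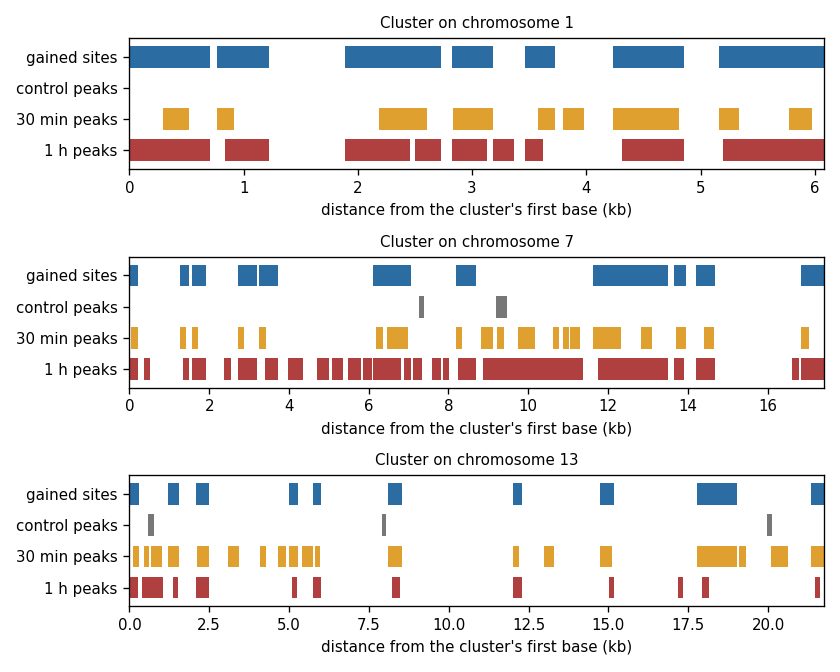
Gained sites and the peaks of the control, 30 min and 1 h lists in 3 clusters, drawn to scale as distance in kb from the first base of each cluster. The cluster on chromosome 1 holds 7 sites and no control peak, that on chromosome 7 holds 11 sites and 2 control peaks, and that on chromosome 13 holds 10 sites and 3 control peaks.

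The most isolated sites of at least 300 bp at both times lay far from any control peak. On chromosome 15 from 28354469 to 28355588, 884 bp were covered at 1 h and 1119 bp at 30 min, and the nearest control peak was 775435 bp away. On chromosome 7 from 69063190 to 69063741 the values were 383 bp at 1 h and 552 bp at 30 min, at 280960 bp from control. On chromosome 2, a site from 192811481 to 192812359 held 762 bp at 1 h and 646 bp at 30 min, and a site from 70780708 to 70781366 held 633 bp at 1 h and 373 bp at 30 min. These 2 lay 245081 and 213011 bp from control. The last, on chromosome 12 from 28122956 to 28123301, held 339 bp at 1 h and 322 bp at 30 min. No peaks were filtered out for lying in repeats or in places that give signal with any antibody, and the part of such places here was not tested.

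TOP2A was mapped without drug and played no part in the choice of sites. Only 5 of the 9198 gained sites (0.0544%, 0.0232 to 0.127) overlapped a TOP2A peak. With Pol II peaks of at least 300 bp alone the share was 0.214% (0.119 to 0.382) of 5145 sites. These are partly other regions, since some of them hold shorter control peaks that this choice leaves out. Regions in all 3 Pol II lists did so in 1140 of 34044 cases (3.35%, 3.16 to 3.55). Per Mb of merged region there were 1.24 TOP2A peaks in gained sites and 27.9 in regions of all 3 lists. Other kinds of region lay in between, with 1.52 per Mb at 1 h only, 4.06 at 30 min only and 7.34 in control only. The values of 1.24 and 1.52 rest on 5 and 10 TOP2A peaks. By share of regions, those at 1 h only stood at 0.0401% (0.0218 to 0.0738), below gained sites but with overlapping intervals.

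Gained sites are narrow, and wide Pol II regions hold TOP2A more often, so shares were also compared within bands of width. Among regions of 300 bp to under 600 bp, 1 of 4761 gained sites held TOP2A (0.0210%, 0.00371 to 0.119), against 45 of 7564 regions of all 3 lists (0.595%, 0.445 to 0.795). Among those of 600 bp to under 1000 bp it was 0 of 1288 gained sites (0 to 0.297%, where 3 sites would make 0.233%), against 102 of 8206 (1.24%, 1.03 to 1.51). From 1000 bp to under 2000 bp it was 1 of 289 gained sites (0.346%, 0.0611 to 1.93), against 444 of 10678 (4.16%, 3.80 to 4.55). Under 300 bp the intervals overlapped, with 3 of 2843 gained sites (0.106%, 0.0359 to 0.310) and 4 of 1128 regions of all 3 lists (0.355%, 0.138 to 0.908).

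Other kinds of region also held little TOP2A. Between 300 and 600 bp, 4 of 2104 regions in control and at 30 min held TOP2A (0.190%, 0.0740 to 0.488), as did 3 of 2651 in control and at 1 h (0.113%, 0.0385 to 0.332). For regions at 1 h only the share was 5 of 5484 (0.0912%, 0.0390 to 0.213). All of these intervals overlap that of the gained sites. The TOP2A list holds few and short peaks, with a median of 87 bp and 517 of 1840 at its smallest width of 73 bp. Weak TOP2A at narrow Pol II sites could be missing from such a list and cannot be told apart from none.

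**Figure D5:**
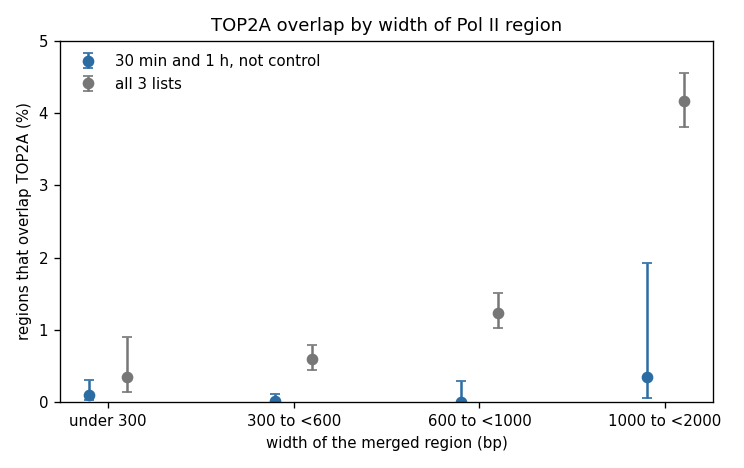
Share of merged regions that overlap a TOP2A peak (vertical axis, %) by width of the region in bp, for gained sites and for regions of all 3 Pol II lists. Points are shares and bars 95% Wilson intervals. From 300 bp up the gained sites stand below the regions of all 3 lists, at 0.0210, 0 and 0.346% against 0.595, 1.24 and 4.16%.

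The 5 gained sites with TOP2A were mostly small. Chromosome 1 from 16952957 to 16953218 held 182 bp of Pol II at 1 h and 215 bp at 30 min, at 12393 bp from control. Chromosome 17 from 79370460 to 79370747 held 259 bp at 1 h and 256 bp at 30 min, and chromosome 2 from 25266124 to 25266388 held 260 bp at 1 h and 222 bp at 30 min. The remaining 2 were neighbours on chromosome 2. That from 46525665 to 46525991 covered 327 bp at 1 h and 157 bp at 30 min, and that from 46526043 to 46527098 covered 1056 bp at 1 h and 255 bp at 30 min. Both of these were among the sites with at least 2 times as much cover at 1 h.

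A TOP2A peak lay on or within 5 kb of 230 gained sites (2.50%, 2.20 to 2.84). The share was 2.58% (2.39 to 2.78) for regions at 1 h only, 1.88% (1.66 to 2.12) for those at 30 min only, 2.57% (2.31 to 2.85) for those in control only and 5.47% (5.23 to 5.72) for those of all 3 lists. Gained sites were thus within the intervals of regions at 1 h only and in control only, and below regions of all 3 lists. Of the sites within 1 kb of control 2.95% (2.54 to 3.43) had one, and of those over 5 kb from control 0.610% (0.296 to 1.25). The 225 sites with TOP2A near but not on them had 178 separate TOP2A peaks as their nearest. Of these, 154 (86.5%, 80.7 to 90.8) lay under a control Pol II peak, against 76.4% (74.4 to 78.3) of all TOP2A peaks.

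Control peaks with TOP2A had a gained site nearby less often than control peaks of like width without it. Among control peaks of 300 bp to under 1000 bp, 42 of 308 with TOP2A (13.6%, 10.2 to 17.9) had a gained site within 5 kb, against 6659 of 24911 without (26.7%, 26.2 to 27.3). Among those of 3 kb or more it was 14 of 135 (10.4%, 6.28 to 16.7), against 198 of 904 (21.9%, 19.3 to 24.7). The difference was smaller between 1 and 3 kb, at 17.3% (14.6 to 20.4) and 22.0% (21.1 to 22.9). Under 300 bp the shares were 14.6% (8.57 to 23.9) and 37.7% (37.3 to 38.1). Peaks near each other share their gained sites, so these intervals are too narrow, and no test across libraries could be made.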

How the data were processed

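The deposited files are 4 lists of peaks with chromosome, start and end in bp and no score, 1 per condition. Per the submitters' processing notes, the authors used Bowtie 1.2.0, MACS2, deepTools 2.4.1 and hg19; the MACS2 version, peak threshold and background library are not given in the sources at hand. The 3 IgG libraries have no list and were not analysed here. Positions were read as counted from 0 and are printed counted from 1.

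Pol II peaks sharing at least 1 bp were merged, and regions were sorted by which lists had a peak in them. Width at a time is the bases of a region under that list's peaks. Distance is the number of bases between a region and the nearest control peak. Clusters and domains join across gaps of up to 5 kb. TOP2A was counted as present at an overlap of 1 bp. Named sites are the 10 with the largest lesser width of both times, the 5 farthest from control of at least 300 bp at both times, the top 3 clusters by sites and by bases at 30 min, and all sites with TOP2A; others are marked as chosen after their values were seen. The sites and rules were chosen with earlier results of these data known. Alternatives changed the limits of the lists, the smallest peak, the overlap, the distance to control and the gaps.

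The deposited peaks pool all libraries, so there is no test and no fit without a library. The interval functions were checked against bedtools 2.31.1 on simulated data. Software versions were scipy 1.17.1, numpy 2.4.6, matplotlib 3.10.9 and pandas 2.3.3 under Python 3.11.15.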

Additional observations from a re-analysis of the deposited data

How the results depend on the processing

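Of 47 recomputed values, 17 stayed within the main interval, or within 1.5 times for a count, and 30 did not; the cause was not tested where the choice itself does not give it. No paired analysis was possible because each list pools its libraries, and for the same reason no library could be left out. With like limits and with peaks of at least 300 bp, shorter control peaks were left out too and regions were sorted anew. The sites of these 2 choices are thus partly other regions than the 9198, measured against fewer control peaks. With like limits, 64.1% of sites were wider at 1 h, the median distance to control was 895 bp, 34.9% lay inside a domain, 66.3% had a neighbour with 2 partners, 56.4% lay in clusters, chromosome 16 had 11.5% gained regions, and 2657 regions lay in control and at 30 min. Of the 9198 sites, 7619 (82.8%) overlapped a gained site under these limits, 1414 then had a peak at 1 h only and 165 met control. With peaks of at least 300 bp there were 5145 sites, a median distance of 1591 bp, 20.0% inside domains, 77.7% with such a neighbour, 42.9% in clusters, 0.214% with TOP2A and 12.6% on chromosome 16, against 923 regions in control and at 30 min and 1791 in control and at 1 h. With no control peak within 1 kb, 3612 sites were left by construction, of which 71.7% were wider at 1 h, 12.2% lay inside domains and 36.6% in clusters, at a median distance of 2692 bp, and chromosome 16 had 4.10%. With an overlap of 50% of the narrower peak, 51.3% lay in clusters and chromosome 16 had 9.11%. Cluster gaps of 1 and 10 kb gave 27.5% and 64.5% in clusters, and domain gaps of 1 and 10 kb gave 7.06% and 57.1% inside. TOP2A within 1 and 5 kb was found at 0.478% and 2.50% of sites. Joining peaks that only touch, chosen after seeing the data, gave 9197 sites. Depth was unknown, which limits every statement about a peak's absence.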

Other observations

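Gained sites were found on all 23 chromosomes with Pol II peaks, from 102 sites on chromosome 18 to 920 on chromosome 1. Their share of each chromosome's merged regions had a median of 8.90%. It was highest on chromosome 16, at 527 of 5191 regions (10.2%, 9.36 to 11.0), and lowest on chromosome X, at 116 of 1654 (7.01%, 5.88 to 8.35). The median width at 1 h ran from 273 bp on chromosome X to 328 bp on chromosome 21.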
